A study of Mus musculus with 6 samples.

Results

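Genes of the periodontal ligament and the dental follicle were followed across 6 RNA sequencing libraries from mouse lower first molars in which Arid1a had or had not been targeted. The dental follicle is the connective tissue that surrounds the forming tooth and gives rise to the periodontal ligament, the band of collagen fibres that holds the root in its socket. Fibroblasts of this lineage secrete fibrillar collagens together with matricellular proteins, which sit in the matrix and modulate how cells and fibres interact. They also use transcription factors first described in tendon. The 10 genes described here were picked by symbol: Postn, Scx, Mkx, Tnmd, Spon1, Smoc2, Coch, Ndnf, Cthrc1 and Mfap5. All 10 were found among the 22287 genes of the deposited count table, and all 10 passed the filter on low counts.

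The mutant group carried Gli1-CreER and Arid1a fl/fl (3 libraries, replicates 3, 4 and 5), and the control group carried Arid1a fl/fl without Cre (3 libraries, replicates 2, 3 and 5). Both groups were C57BL/6, and all pups received tamoxifen by intraperitoneal injection at postnatal day 3.5 and were sampled at postnatal day 7.5, when the apical part of the molar was taken for RNA. Gli1-CreER is a tamoxifen-inducible Cre recombinase driven by Gli1, which marks Hedgehog-responsive cells, so recombination can occur only in part of the tissue, and effects of Cre itself cannot be told apart from loss of Arid1a because controls lacked it. The product of Arid1a is part of BAF, a complex that remodels chromatin. The labels do not say whether a library came from 1 pup or from a pool, and the spread behind each p-value is that between libraries, which may be technical. In such bulk tissue, fewer cells of a type and less RNA per cell cannot be told apart.

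The libraries held 20453247 to 24255352 estimated gene counts. Arid1a, the targeted gene, had 119, 133 and 130 CPM (counts scaled to library size by TMM) in mutant replicates 3, 4 and 5, against 209, 202 and 204 CPM in control replicates 2, 3 and 5. It fell (log2 fold change -0.68, SE 0.07, edgeR quasi-likelihood test, adjusted p = 0.0129; 0.0505 without control replicate 2 and 0.0529 without control replicate 3). Across the 17305 genes tested, 0.659% were called higher in mutants and 1.2% lower at an adjusted p under 0.05, which is 114 and 208 genes. At an unadjusted p under 0.05, 1233 genes were higher and 1355 lower by edgeR, and DESeq2 called 365 higher and 504 lower. Scaling to library totals only put the median of all genes at a log2 fold change of 0.21 in place of 0.01, and 411 genes were called higher and 109 lower, so that 79% of calls were higher in place of 35.4%.

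The 10 genes were chosen with the comparison of mutants and controls already known, among them several that had passed the test across all genes. Their fold changes and adjusted p-values in this comparison are therefore given as a description of the values behind the choice. Of the 10, 5 had an adjusted p under 0.05 and a higher level in mutants, beside 0.659% of all tested genes, and 0 had a lower level past this threshold (0 also at an unadjusted p under 0.05, and 0 by DESeq2). In 7 of the 10 each mutant library lay above each control library, as it did in 10.6% of all tested genes. The median log2 fold change was 0.68 over the 10 genes and 0.01 over all tested genes.

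**Figure D1:**
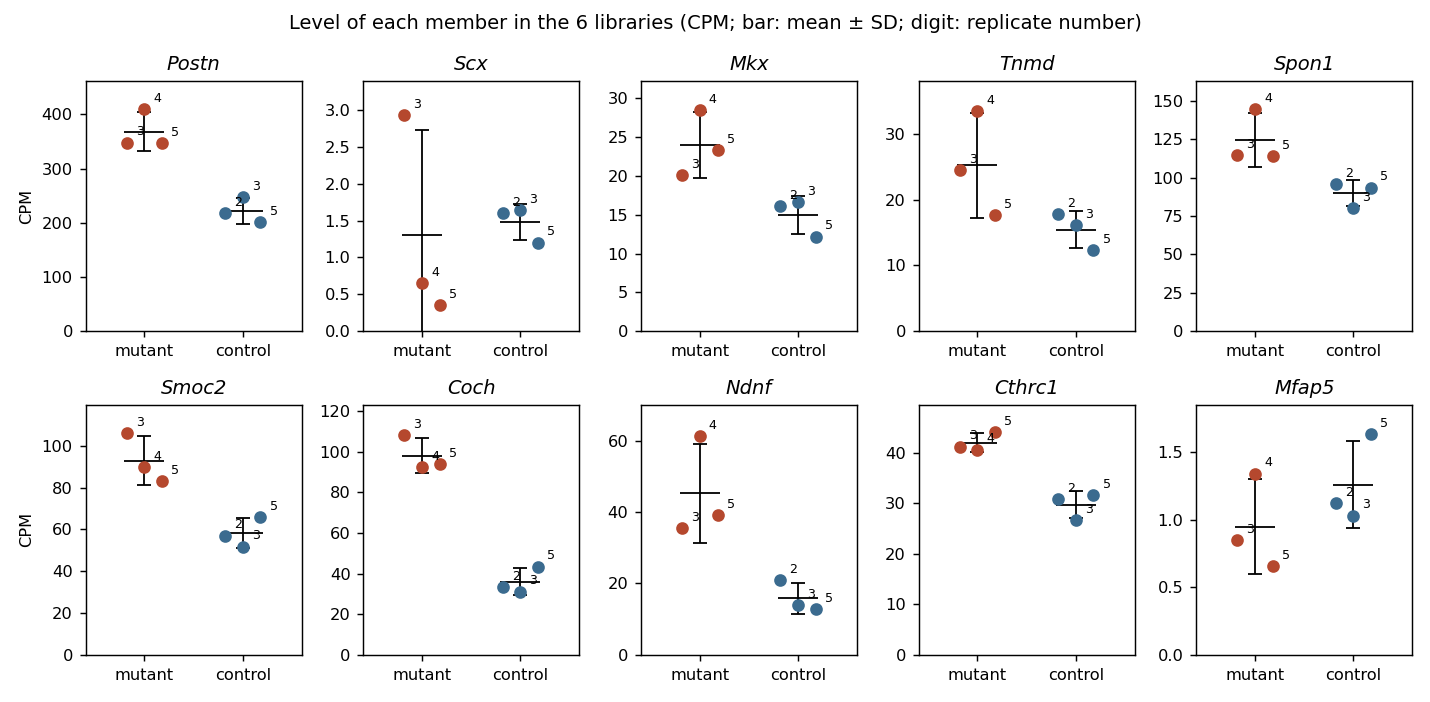
Level of each of the 10 genes in CPM (y axis, from 0) in the 3 mutant libraries (left in each panel) and the 3 control libraries (right); dots are libraries marked with their replicate number, and bars are the mean ± SD. Groups are apart in 7 panels and overlap for Scx, Tnmd and Mfap5, and the SD bar of Scx in mutants is wider than its mean and is cut at the axis.

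Among the matricellular genes, Postn encodes periostin, a protein abundant in the periodontal ligament that binds collagen and other matrix proteins. Postn had 348, 409 and 347 CPM in mutant replicates 3, 4 and 5, against 218, 248 and 201 CPM in control replicates 2, 3 and 5. The groups were apart, with the lowest mutant library 1.4 times the highest control library. The means were 368 ± 35.5 CPM in mutants and 222 ± 24 CPM in controls (SD, n = 3 each), a log2 fold change of 0.73 (SE 0.11, edgeR adjusted p = 0.0262). In mm10, the build of all positions here, Postn spans 54361109 to 54391037 of chromosome 3 on the plus strand.

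Smoc2 encodes a calcium-binding matricellular protein of the SPARC family. It had 106, 89.7 and 83 CPM in mutant replicates 3, 4 and 5, against 57, 51.8 and 65.8 CPM in control replicates 2, 3 and 5. Mutant replicate 3 was the highest library and the groups did not overlap, with 93.1 ± 12.1 CPM in mutants and 58.2 ± 7.06 CPM in controls (SD, n = 3 each). The log2 fold change was 0.68 (SE 0.12, edgeR adjusted p = 0.0412). Smoc2 lies on chromosome 17 from 14279506 to 14404790 on the plus strand. An antisense gene model, 4930474M22Rik, runs through it without sharing an exon and reached at most 0.154 CPM in any library, in mutant replicate 3.

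Of the secreted matrix proteins, Coch encodes cochlin, best known as the most abundant protein of the inner ear matrix. Coch had 108, 92.3 and 94 CPM in mutant replicates 3, 4 and 5, against 33.2, 31.1 and 43.5 CPM in control replicates 2, 3 and 5. Here the gap between the groups was the widest of the 10 genes, since the lowest mutant library stood at 2.12 times the highest control library. The means were 98.2 ± 8.76 CPM in mutants and 35.9 ± 6.62 CPM in controls (SD, n = 3 each), a log2 fold change of 1.45 (SE 0.14, edgeR adjusted p = 0.00742). Coch lies on chromosome 12 from 51593341 to 51605771 on the plus strand.

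Cthrc1 encodes a small secreted protein with a short collagen-like stretch, made by activated fibroblasts. It had 41.2, 40.6 and 44.1 CPM in mutant replicates 3, 4 and 5, against 30.8, 26.7 and 31.6 CPM in control replicates 2, 3 and 5. Mutant libraries were the most alike for this gene, with a coefficient of variation of 4.47%, and the groups did not overlap. The means were 42 ± 1.88 CPM in mutants and 29.7 ± 2.66 CPM in controls (SD, n = 3 each), with a log2 fold change of 0.50 (SE 0.09, edgeR adjusted p = 0.039). Cthrc1 lies on chromosome 15 from 39076932 to 39087121 on the plus strand.

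Spon1 encodes F-spondin, a secreted protein with thrombospondin-type repeats first described in the floor plate of the neural tube. It had 115, 145 and 114 CPM in mutant replicates 3, 4 and 5, against 95.8, 80.2 and 93.6 CPM in control replicates 2, 3 and 5. The groups were apart, but the lowest mutant library was only 1.19 times the highest control library. The log2 fold change was 0.47 (SE 0.12, edgeR adjusted p = 0.101). Of the 11 alternative fits other than those with 1 library left out, 2 called Spon1 higher. Spon1 lies on chromosome 7 from 113765998 to 114043370 on the plus strand.

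Ndnf encodes a secreted glycoprotein with fibronectin type III repeats, named for its trophic effect on cultured neurons. It had 35.4, 61.2 and 39.2 CPM in mutant replicates 3, 4 and 5, against 20.9, 13.9 and 12.9 CPM in control replicates 2, 3 and 5. Mutant replicate 4 was far above the other mutants and control replicate 2 above the other controls, yet the groups did not overlap. The means were 45.2 ± 13.9 CPM in mutants and 15.9 ± 4.34 CPM in controls (SD, n = 3 each), with a log2 fold change of 1.51 (SE 0.25, edgeR adjusted p = 0.0344). This was the largest fold change of the 10 genes, at 2.84-fold, and its coefficients of variation were 30.8% in mutants and 27.3% in controls. Ndnf lies on chromosome 6 from 65671590 to 65712326 on the plus strand.

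Among the 5 genes past the threshold, Coch had the lowest adjusted p (0.00742), and the other 4 lay between 0.0262 (Postn) and 0.0412 (Smoc2). With 1 library left out in turn, Coch stayed under 0.05 in 5 of 6 fits (0.0505 without control replicate 2). Postn and Ndnf did so in 1 fit each, without mutant replicate 3 (0.0407 for Postn and 0.0366 for Ndnf), and Smoc2 and Cthrc1 in 0. The highest values among these fits were 0.0901 for Postn, 0.139 for Ndnf, 0.154 for Smoc2 and 0.138 for Cthrc1. The log2 fold changes kept their sign and ran from 0.65 to 0.82 for Postn, 1.36 to 1.62 for Coch, 1.23 to 1.76 for Ndnf, 0.57 to 0.78 for Smoc2 and 0.43 to 0.56 for Cthrc1. The range was widest for Ndnf.

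**Figure D2:**
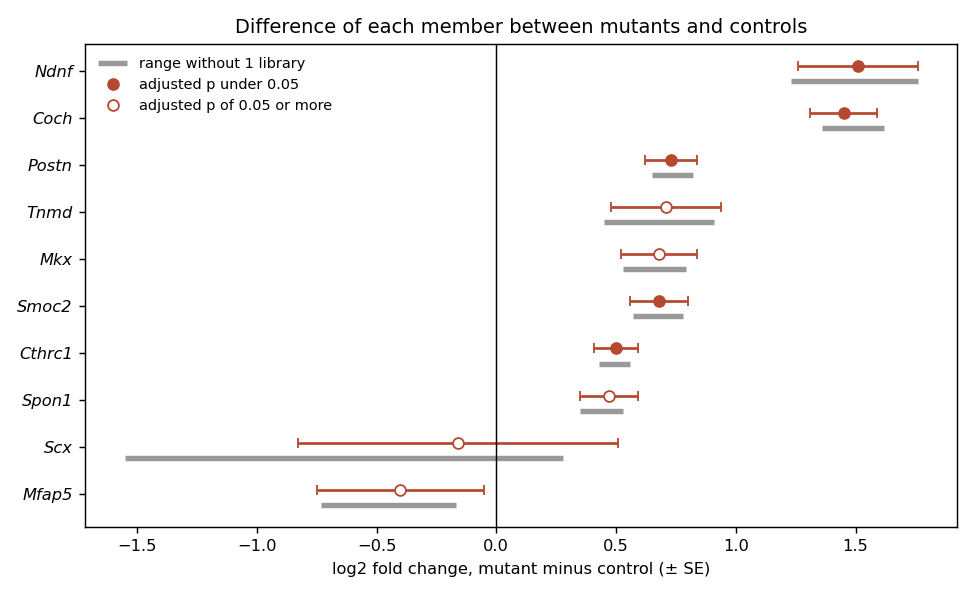
Log2 fold change of each gene, mutant minus control (x axis), with its SE as whiskers; filled dots have an adjusted p under 0.05 across all genes, and grey bars give the range when 1 library is left out. Ndnf (1.51) and Coch (1.45) are farthest to the right, Scx has the longest grey bar, from -1.55 to 0.28, and Scx and Mfap5 alone have estimates below 0.

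The tendon and ligament regulators and their target did not share one pattern. Mkx encodes Mohawk, a homeobox factor needed for collagen fibre growth in mouse tendon. Mkx had 20.1, 28.5 and 23.3 CPM in mutant replicates 3, 4 and 5, against 16.1, 16.6 and 12.2 CPM in control replicates 2, 3 and 5. Each mutant library was above each control library, by a margin of 1.21 times between the nearest. The log2 fold change was 0.68 (SE 0.16, edgeR adjusted p = 0.0957). Of the 11 alternative fits other than those with 1 library left out, 2 called Mkx higher. Mkx lies on chromosome 18 from 6934518 to 7004780 on the minus strand. A gene model on the same strand, AC148004.2, shares 201 bases with its exons (4.91% of them) and is absent from the counted genes.

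Tnmd encodes tenomodulin, a membrane glycoprotein of mature tendon and ligament cells that depends on Scx in mouse tendon. It had 24.5, 33.5 and 17.6 CPM in mutant replicates 3, 4 and 5, against 17.8, 16.1 and 12.3 CPM in control replicates 2, 3 and 5. Mutant replicate 5 lay just below control replicate 2, so the groups overlapped. The log2 fold change was 0.71 (SE 0.23, edgeR adjusted p = 0.201), and it was 0.45 without mutant replicate 4 and 0.91 without mutant replicate 5. Tnmd lies on chromosome X from 133850980 to 133865577 on the plus strand.

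Scx encodes scleraxis, a basic helix-loop-helix factor that marks tendon and ligament progenitors. It was counted rarely, with 76, 15 and 8 counts in mutant replicates 3, 4 and 5, against 33, 35 and 22 counts in control replicates 2, 3 and 5. In CPM these are 2.93, 0.65 and 0.351 in the mutants, against 1.6, 1.64 and 1.2 in the controls. Mutant replicate 3 was thus the highest of the 6 libraries while mutant replicates 4 and 5 were the lowest. The 95% Poisson interval of mutant replicate 3 (59.9 to 95.1 counts) did not meet those of mutant replicate 4 (8.4 to 24.7) or mutant replicate 5 (3.45 to 15.8), so the mutants differed among themselves by more than counting error, the sole error these intervals cover. The log2 fold change was -0.16 (SE 0.67, edgeR adjusted p = 0.941), and without mutant replicate 3 it was -1.55 (adjusted p = 0.122). Its sign was not stable, since the value was 0.16 without mutant replicate 4, 0.28 without mutant replicate 5 and 0.03 when scaled by library totals only. Scx lies on chromosome 15 from 76457452 to 76459458 on the plus strand, within the body of Bop1 on the other strand and with no shared exon. Whether counting used strand is not stated in the sources used here. Bop1, a ribosome assembly gene, had 24.2 ± 1.88 CPM in mutants and 26.1 ± 2.47 CPM in controls (SD, n = 3 each).

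Mfap5 encodes MAGP-2, a microfibril-associated glycoprotein that binds fibrillin. It was also counted rarely, with 22, 31 and 15 counts in mutant replicates 3, 4 and 5, against 23, 22 and 30 counts in control replicates 2, 3 and 5. Its CPM values were 0.849, 1.34 and 0.658 in the mutants, against 1.12, 1.03 and 1.63 in the controls, and the groups overlapped. The log2 fold change was -0.40 (SE 0.35, edgeR adjusted p = 0.669), so no difference was called. Mfap5 lies on chromosome 6 from 122505845 to 122529290 on the plus strand.

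Set side by side, the libraries did not keep one order across the genes. Mutant replicate 4 was the highest mutant for 6 of the 10 genes (Postn, Mkx, Tnmd, Spon1, Ndnf and Mfap5), mutant replicate 3 for 3 (Scx, Smoc2 and Coch) and mutant replicate 5 for 1 (Cthrc1). The lowest control was replicate 5 for 5 genes and replicate 3 for the other 5. Averaged over the 10 genes, log2(CPM + 1) deviated from each gene's own mean by 0.35, 0.43 and 0.12 in mutant replicates 3, 4 and 5, against -0.23, -0.35 and -0.33 in control replicates 2, 3 and 5.

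**Figure D3:**
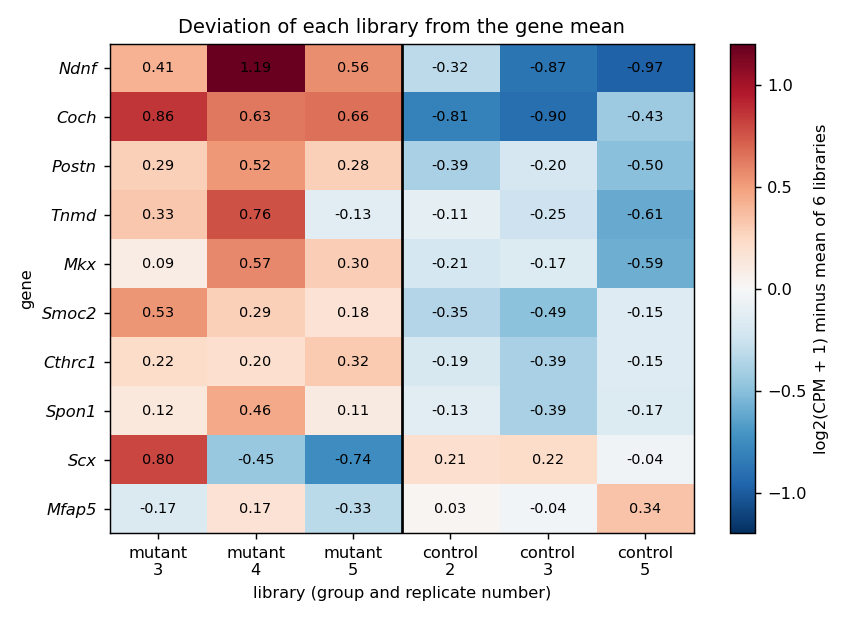
Deviation of log2(CPM + 1) in each library (columns, mutants left of the line) from the mean of the 6 libraries for each gene (rows), with the value in each cell and red for higher. Scx lies above its mean in mutant replicate 3 (0.80) and below it in mutant replicates 4 (-0.45) and 5 (-0.74), whereas each of the other genes lies above its mean in mutant replicate 4.

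Summed markers of several other cell types did not overlap between the groups, and their part in the values of the 10 genes was not tested. The 9 dental epithelium and ameloblast markers summed to 93686, 114845 and 68801 CPM in mutant replicates 3, 4 and 5, against 179205, 201558 and 278564 CPM in control replicates 2, 3 and 5. The sum was lower in each mutant, but it was mostly the enamel matrix genes Amelx, Ambn and Enam. Amelx alone had 109241, 119774 and 208837 CPM in control replicates 2, 3 and 5. Of the 9 markers, 3 had a log2 fold change above 0, namely Krt14 (0.03), Epcam (0.31) and Odam (0.93). Amelx, the main enamel matrix gene, fell (log2 fold change -1.59, SE 0.30, edgeR adjusted p = 0.047). It was the single called gene of the 9, and its adjusted p was 0.0799 to 0.123 with any 1 library left out. At an unadjusted p under 0.05 on all libraries, 5 of the 9 were lower, beside 1355 of all 17305 tested genes. DESeq2 called 4 of the 9 lower, limma-voom 2, edgeR with a replicate block on 4 libraries 3, and limma on the normalized signal 0. Without a block, edgeR called 1 other than Amelx without mutant replicate 4 and 0 without any other single library. The 7 erythroid markers, chiefly globins, summed to 2364, 5505 and 3879 CPM in the mutants, against 1806, 1946 and 1421 CPM in the controls, and mutant replicate 4, the highest mutant for 6 of the 10 genes, had the most. None of the 6 tested erythroid genes was called by edgeR on all libraries. In that fit 5 were higher at an unadjusted p under 0.05, beside 1233 of all 17305 tested genes. Without mutant replicate 3, 4 were called higher, as were 4 by DESeq2 and 3 with scaling to library totals only.

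Sums did not overlap between groups either for macrophages (252 to 331 CPM in mutants, 189 to 229 CPM in controls), osteoblasts (2939 to 3520 and 2321 to 2841 CPM), Schwann cells (25.7 to 29.9 and 22.4 to 24.2 CPM), cartilage (150 to 215 and 116 to 140 CPM) and endothelium (266 to 277 and 225 to 264 CPM). The endothelial ranges nearly met. In the edgeR fit on all libraries with TMM scaling, 0 genes of these 5 lists were called in either direction. At an unadjusted p under 0.05 in that fit, 4 macrophage, 2 osteoblast, 3 Schwann cell, 3 cartilage and 0 endothelial markers were higher. There, 1 Schwann cell marker was lower. Beside these stood 1233 higher and 1355 lower genes of all 17305 tested. Single markers did not all go with these sums. The Schwann cell marker Mbp was lower in each mutant (6.96 ± 0.962 CPM in mutants, 9.74 ± 0.296 CPM in controls, SD, n = 3 each, log2 fold change -0.48). Sox9, the largest part of the cartilage sum, overlapped between groups (0.24), and the osteoblast marker Alpl was level (-0.02). Bglap was the largest part of the osteoblast sum (1571 ± 164 CPM in mutants, 1103 ± 170 CPM in controls, SD, n = 3 each), while Ibsp and Spp1 overlapped. The sums overlapped for odontoblasts (41882 to 51599 CPM in mutants, 48505 to 49920 CPM in controls), osteoclasts (138 to 231 and 143 to 188 CPM) and pericytes and smooth muscle (480 to 518 and 455 to 495 CPM). In the last list Myh11, a smooth muscle myosin gene, rose (log2 fold change 0.92, edgeR adjusted p = 0.0499), a call kept in 1 of the 6 fits without a library (without mutant replicate 5, 0.0491). The odontoblast sum was mostly Col1a1 (38071 ± 3508 CPM in mutants, 38917 ± 895 CPM in controls, SD, n = 3 each), also listed here under tendon and ligament genes. In that sum Nes was lower in each mutant than in each control (log2 fold change -0.25) and Dmp1 was higher (0.30). Neither was called by edgeR. Skeletal muscle markers summed to 9.96, 14.3 and 5.31 CPM in mutant replicates 3, 4 and 5, against 33, 6.31 and 6.31 CPM in control replicates 2, 3 and 5. The cartilage sum holds 4 of its 5 listed markers, and Matn1 was not analysed here. Every gene of the count table had at least 10 counts summed over the libraries, so a marker at 0 throughout could not appear in it.

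**Figure D4:**
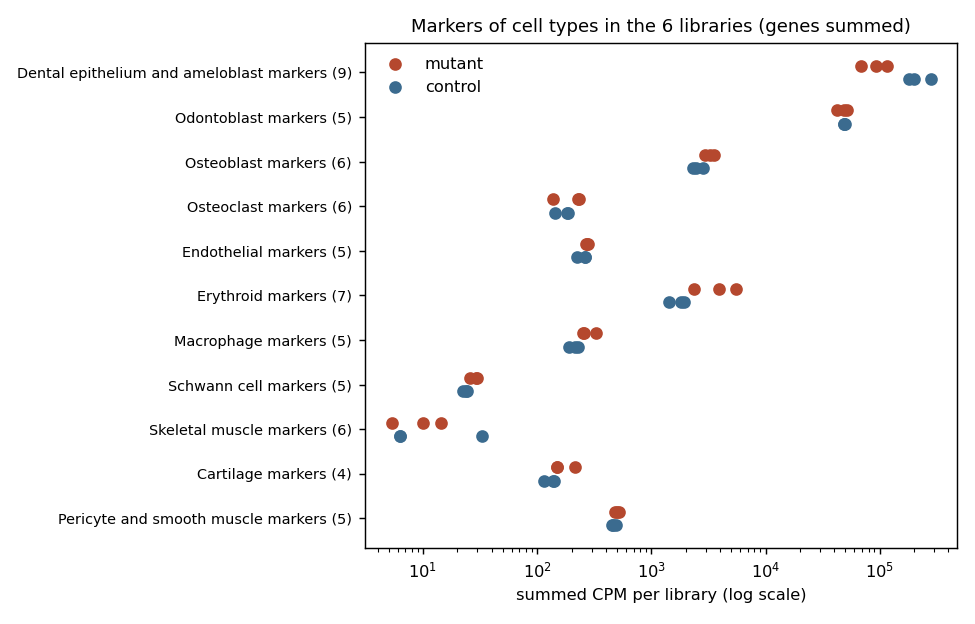
Summed CPM of marker genes of 11 cell types (rows, with the number of genes summed) in each mutant library (upper dots) and each control library (lower dots), on a log scale. The dental epithelium sum, mostly enamel matrix genes, is lower in the mutants (at most 114845 CPM, against at least 179205 CPM in controls). The erythroid sum is higher (at least 2364 CPM, against at most 1946 CPM).

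Levels can be compared between genes once they are divided by transcript length. Per kilobase of the longest coding transcript, Postn was the most abundant of the 10, at 115 ± 11.1 CPM per kilobase in mutants and 69.3 ± 7.47 in controls (SD, n = 3 each), above 98.3% and 96.6% of the 14135 coding genes tested. In mutants the order then ran Coch (36.6 ± 3.27), Cthrc1 (36 ± 1.61), Smoc2 (32.9 ± 4.27), Spon1 (20.2 ± 2.87), Tnmd (18.6 ± 5.88), Mkx (6.56 ± 1.16), Ndnf (4.48 ± 1.38), Scx (1.27 ± 1.37) and Mfap5 (0.631 ± 0.235). Ranges over the mutant libraries overlapped between Coch and Cthrc1, Cthrc1 and Smoc2, Spon1 and Tnmd, Mkx and Ndnf, and Scx and Mfap5. Neighbours were not compared within each library, so these overlaps do not show whether their order held in each library. In controls Cthrc1 (25.5 ± 2.28), Smoc2 (20.6 ± 2.49), Spon1 (14.6 ± 1.37), Coch (13.4 ± 2.47) and Tnmd (11.4 ± 2.08) followed Postn, and then Mkx (4.1 ± 0.667), Ndnf (1.57 ± 0.43), Scx (1.43 ± 0.237) and Mfap5 (0.836 ± 0.216). Ranges over the control libraries overlapped between Cthrc1 and Smoc2, Spon1 and Coch, Coch and Tnmd, and Ndnf and Scx. Coch thus had rank 2 in mutants and rank 5 in controls, while Postn had rank 1 and Mfap5 rank 10 in both groups. With the length of all exons joined, the places of Smoc2, Spon1 and Tnmd changed in both groups, and Coch had rank 3 in controls.

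Promoter sequence was available for only 3 of the 10 genes, and all 3 are shown. Postn and Coch had higher levels in every mutant library while Tnmd overlapped between groups, and a link of sequence to level was not tested. The 250 bases before the RefSeq start (GRCm38.p6, plus strand, 5′ to 3′) are printed in lower case, with capitals for matches to the motifs named below. They come from chr3:54360857-54361106 for Postn (the nearer of 2 RefSeq starts to the GENCODE start), chr12:51593091-51593340 for Coch and chrX:133850758-133851007 for Tnmd. The RefSeq start of Tnmd lies 28 bases after its GENCODE start, so the end of that window is within the gene as placed above.
Postn: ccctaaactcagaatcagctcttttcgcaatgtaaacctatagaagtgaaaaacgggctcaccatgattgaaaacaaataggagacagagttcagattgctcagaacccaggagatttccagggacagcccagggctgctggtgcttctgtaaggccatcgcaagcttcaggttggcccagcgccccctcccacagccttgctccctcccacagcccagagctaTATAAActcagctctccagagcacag
Coch: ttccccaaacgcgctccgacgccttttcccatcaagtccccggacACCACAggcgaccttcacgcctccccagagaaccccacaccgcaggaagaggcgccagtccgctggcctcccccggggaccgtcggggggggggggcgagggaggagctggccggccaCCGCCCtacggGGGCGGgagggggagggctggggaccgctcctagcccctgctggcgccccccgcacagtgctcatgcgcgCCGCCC
Tnmd: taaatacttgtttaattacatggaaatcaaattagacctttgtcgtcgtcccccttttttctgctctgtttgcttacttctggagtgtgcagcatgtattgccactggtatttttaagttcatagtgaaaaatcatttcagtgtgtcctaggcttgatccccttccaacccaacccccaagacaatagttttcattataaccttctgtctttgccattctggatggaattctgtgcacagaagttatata

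The Postn window held a TATA box (TATAAA) whose first base is at -26 from the start, a motif found in 12.4% of the 32851 promoter windows searched on both strands. The Coch window held no TATAAA but 3 GC boxes (GGGCGG or CCGCCC), beginning at -87, -76 and -6, a motif present in 32.7% of windows. It also held the Runx core TGTGGT on the minus strand at -205, a motif present in 14% of windows. None of the 3 windows held an E-box (CANNTG, in 66.2% of windows, which includes the form CAGATG, in 14.4%). Likewise none held the SMAD motif CAGACA (17.1%), the AP-1 motif TGANTCA (6.75%), the TEAD motif GGAATG (12.6%) or the Gli motif GACCACCCA (0.225%). These matches describe letters in the windows and say nothing of binding.

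Genes related to the 10 by tissue, family, name or pathway were described through 5 other lists, from which the 10 were left out and which were drawn up with earlier results of these data known. Of their 102 tested genes, 10 rose, 0 fell and 92 did not pass (edgeR), beside 0.659% higher and 1.2% lower among all tested genes. At an unadjusted p under 0.05, 33 were higher and 7 lower, beside 1233 and 1355 of all 17305 tested genes. DESeq2 called 21 higher and 2 lower, beside 365 and 504 of all tested genes. Over the 102 genes the median fold change was 0.12 (log2).

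Of 25 other dental follicle and periodontal ligament genes, 3 rose and 0 fell, with a median of 0.25. They were Col14a1, a fibril-associated collagen (97.2 ± 14.9 CPM in mutants, 47.7 ± 6 CPM in controls, log2 fold change 1.03, edgeR adjusted p = 0.0205, SD, n = 3 each), Igfbp3, which encodes a binding protein for IGFs (log2 fold change 0.64, adjusted p = 0.0389), and Tnn. Tnn encodes tenascin-W, a matricellular protein, and had 33.1, 33.3 and 26.2 CPM in mutant replicates 3, 4 and 5, against 17.2, 12.5 and 16.7 CPM in control replicates 2, 3 and 5 (30.9 ± 4.03 and 15.5 ± 2.54 CPM on average, SD, n = 3 each, edgeR adjusted p = 0.0262). Its groups were well apart. The eruption signal Pthlh (log2 fold change 0.63, edgeR adjusted p = 0.122) and its receptor Pth1r (0.32, adjusted p = 0.135), both active in the follicle, did not pass. Of the 11 alternative fits other than those with 1 library left out, 2 called Pthlh higher and 1 called Pth1r higher.

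Of 22 other tendon and ligament genes, 3 rose and 0 fell, with a median of 0.18. Six2, a homeobox gene expressed in limb tendons of the mouse, had 23.2, 25.9 and 22.9 CPM in mutant replicates 3, 4 and 5, against 15.2, 14.2 and 14.2 CPM in control replicates 2, 3 and 5 (log2 fold change 0.72, SE 0.09, edgeR adjusted p = 0.018). Its groups did not overlap. The others were Chodl, a membrane lectin (5.23 ± 2.06 CPM in mutants, 1.58 ± 0.348 CPM in controls, SD, n = 3 each, edgeR adjusted p = 0.048), and the transcription factor Ebf1 (20.2 ± 2 CPM in mutants, 14 ± 0.416 CPM in controls, log2 fold change 0.53), whose adjusted p rounds to 0.05 and is just under it. Eya2, a cofactor of such homeobox proteins, did not pass (log2 fold change 0.78, adjusted p = 0.0874), and neither did Thbs4, a thrombospondin of tendon matrix (0.82, adjusted p = 0.104). Both were called higher in 2 of the 11 alternative fits other than those with 1 library left out. DESeq2 called 9 of the 22 genes higher, beside 365 of all 17305 tested genes.

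Of 20 genes listed as relatives of the 10 by family or by name, 3 rose and 0 fell, with a median of 0.22. Smoc1, the paralog of Smoc2, had 5.83, 5.76 and 5.61 CPM in mutant replicates 3, 4 and 5, against 2.09, 2.53 and 2.77 CPM in control replicates 2, 3 and 5. The mutants were almost level with each other and above each control (log2 fold change 1.22, SE 0.17, edgeR adjusted p = 0.0227). Spock1, a testican proteoglycan of the same SPARC family, had 29.5, 40.7 and 31.8 CPM in the mutants, against 13.1, 12.1 and 12.7 CPM in the controls (log2 fold change 1.43, SE 0.13, adjusted p = 0.00742). Mfap4, which encodes a microfibril-associated protein and shares a name rather than a family with Mfap5, had 75.8 ± 5.84 CPM in mutants and 52.6 ± 5.71 CPM in controls (SD, n = 3 each, edgeR adjusted p = 0.048). Next in order of p came Spock3, another testican gene, which did not pass (16, 26 and 40 counts in mutant replicates 3, 4 and 5, against 4, 6 and 1 counts in control replicates 2, 3 and 5, log2 fold change 2.64, SE 0.59, edgeR adjusted p = 0.0766). Matn2, which encodes a matrilin, did not pass either (91.6 ± 26.1 CPM in mutants, 50.5 ± 9.14 CPM in controls, SD, n = 3 each, log2 fold change 0.86, edgeR adjusted p = 0.106). Both were called higher by DESeq2 and with scaling to library totals only. The closest relatives of the remaining genes did not pass. For Tgfbi, the paralog of Postn, the log2 fold change was 0.23 (edgeR adjusted p = 0.282), for Mfap2, of the same glycoprotein pair as Mfap5, 0.29 (0.124), and for Spon2 0.50 (0.259). It was 0.02 for Cnmd, the paralog of Tnmd (0.972), -0.11 for Vit, which shares domains with Coch (0.751), and -0.52 for Irx1, a homeobox gene related to Mkx (0.335). Tcf15, related to Scx, was too low to be tested.

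Of 18 microfibril and elastic fibre genes, 0 were called in either direction by edgeR on all libraries with TMM scaling, and the median log2 fold change was 0.02. Scaling to library totals only called 2 higher, beside 411 of all tested genes. DESeq2 called 1 lower, beside 504, and edgeR without mutant replicate 3 called 1 lower, beside 138. At an unadjusted p under 0.05, 2 were higher and 3 lower, beside 1233 and 1355 of all 17305 tested genes. Efemp1, a fibulin, had a log2 fold change of 0.68 (edgeR adjusted p = 0.124), and Ltbp3, which binds latent TGF-beta, had -0.32 (0.139). Of 17 TGF-beta pathway genes, 1 rose and 0 fell, with a median of -0.08. The riser was Ccn2, which encodes connective tissue growth factor, a target of TGF-beta and YAP (66.5 ± 13.6 CPM in mutants, 40.1 ± 1.2 CPM in controls, SD, n = 3 each, log2 fold change 0.73, edgeR adjusted p = 0.0465). The receptor gene Tgfbr2 had 195, 243 and 226 CPM in mutant replicates 3, 4 and 5, against 275, 292 and 314 CPM in control replicates 2, 3 and 5. Its groups did not overlap, but it did not pass (log2 fold change -0.41, edgeR adjusted p = 0.1).

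With 1 library left out in turn, Spock1 stayed called in 5 of 6 fits (0.0505 without control replicate 2), Col14a1, Tnn and Six2 in 2, Chodl, Smoc1 and Mfap4 in 1, and Igfbp3, Ebf1 and Ccn2 in 0. The highest adjusted p among these fits lay between 0.0505 for Spock1 and 0.169 for Chodl and Ebf1.

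**Figure D5:**
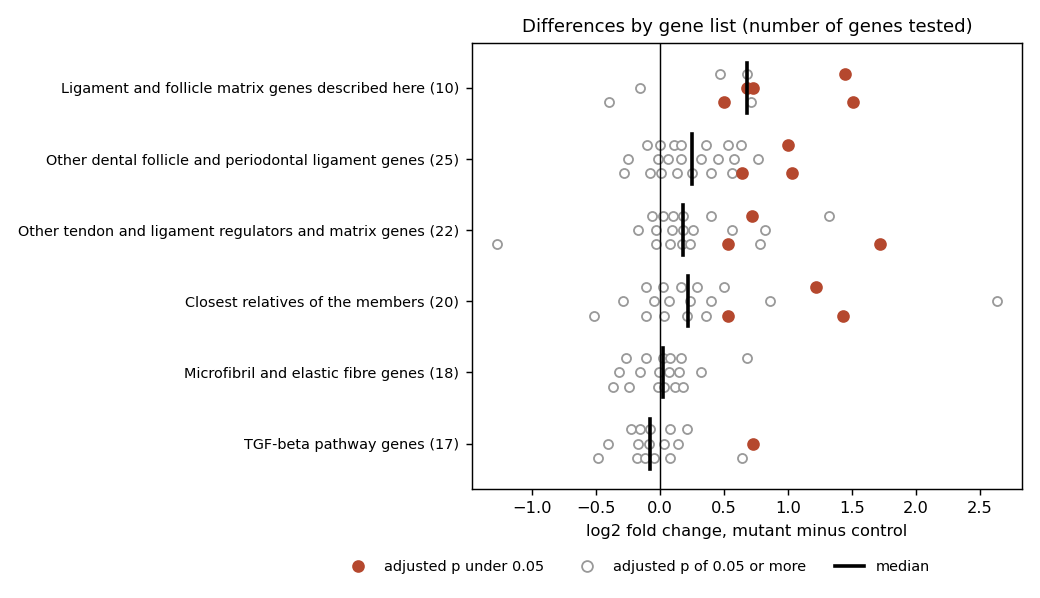
Log2 fold change, mutant minus control (x axis), of each tested gene in 6 groups of genes (rows, with the number tested); filled dots have an adjusted p under 0.05 and black bars are medians. The medians run from 0.68 for the 10 genes described here to -0.08 for TGF-beta pathway genes, and no list has a called gene below 0.

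The genes whose pattern over the 6 libraries was most like the average of the 10 were sought among 12099 other genes averaging 5 CPM or more. Likeness was the root mean square difference of centred log2(CPM + 1) values over the 6 libraries. The 10 were chosen with the comparison of mutants and controls known, so genes near their average are higher in mutants by construction. The nearest were Serping1 (0.0735), which encodes the C1 inhibitor of complement, Gfra4 (0.0742), a receptor of the GDNF family, Six2 (0.0744), Stambpl1 (0.0767), a deubiquitinase gene, and Ccn1 (0.0775), a matricellular relative of Ccn2. Of the 10 genes themselves, Spon1 (0.121) and Postn (0.139) were nearest to their own average and Scx (0.623) was farthest.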

How the data were processed

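The authors deposited expected counts (estimates, not always whole) per gene for all 6 libraries, made by Partek's expectation-maximisation quantification per the file name. The submitters' processing notes name STAR 2.6.1d, Partek and mm10, without roles. The authors' second deposited table holds a normalized signal for 18665 genes, which is the expected count plus 1 times a factor per library, and served for 1 alternative. Strand and library kit are not stated in the sources used here. Library totals are given above, and intervals of counts (exact Poisson, 95%) cover counting error only.

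Counts were rounded and filtered with edgeR 4.0.16 (filterByExpr, R 4.3.3), scaled by TMM and tested with glmQLFit and glmQLFTest between the genotype groups, with Benjamini-Hochberg adjustment over all 17305 genes. The SE is the log2 fold change over the square root of F. No set test was run. A gene of the lists is not reported here. Positions and lengths come from GENCODE M21, which matched all 22287 genes by name, chromosome and start. Promoters are RefSeq sequences.

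The 10 genes and all lists were chosen with earlier results of these data known. Besides the 10, the text names up to 5 genes with the smallest p per list, the closest relatives, the 5 nearest patterns and Arid1a. Amelx and Myh11 were chosen after their values were seen, as the called genes of the marker lists. Other marker genes were also chosen after their values were seen, where they made up much of a sum or did not go with it. Replicates of a group differed by more than counting noise (chi-square per degree of freedom 22.3 to 41). Alternatives were other scalings and filters, DESeq2 1.42.0, limma 3.58.1 (voom, and log2(value + 1) of the normalized signal), library sizes without the 100 most abundant and the epithelial and erythroid genes, each library left out, and a block on the replicate number.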

Additional observations from a re-analysis of the deposited data

How the results depend on the processing

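Of the 10 ligament and follicle matrix genes, 5 to 7 were called higher under the scalings, filters and tools tried on all 6 libraries, and 0 were called lower in any fit. DESeq2 called 365 of all genes higher and 504 lower, and 21 genes of the 5 other lists higher and 2 lower. Scaling to library totals alone called 411 higher and 109 lower overall and 20 higher in the lists, and limma-voom called 6 higher in the lists. With 1 library left out, the calls among the 10 genes numbered 0 to 3, those in the 5 lists 0 to 6 higher and 0 to 1 lower, and those of all genes 1 to 105 higher and 10 to 138 lower. Without control replicate 2, none of the 10 was called by edgeR, while 8 were higher at an unadjusted p under 0.05, beside 1304 of all 17704 tested genes. Such fits have fewer libraries.

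Replicate numbers 3 and 5 occur in both groups, and nothing in the labels says that they pair libraries. Deviations from the group means correlated at 0.267 between the libraries numbered 3 and at -0.144 between those numbered 5, across genes. Pairs of unlike number ran from -0.447 (mutant replicate 3 with control replicate 2) to 0.3 (mutant replicate 5 with control replicate 2). With a replicate block on the 4 libraries numbered 3 or 5, 2 of the 10 genes (Coch and Ndnf), 3 genes of the lists, and 19 genes higher and 64 lower among all genes were called. Without the block, chosen after seeing the data, the same 4 libraries gave 0 calls by edgeR among the 10, the lists and all genes in either direction (850 genes higher and 967 lower at an unadjusted p under 0.05; the 10 had 8 higher). Over the 58 genes tracked, no called gene changed sign under any setting. Mfap5 was counted rarely, with 15 to 31 counts per library, and the part of depth in its SE was not tested. Scx had 8 to 76 counts, and its mutant libraries differed by more than counting error.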
